A study of Mus musculus with 12 samples.

Results

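The 31 genes described here are myelin genes and markers of oligodendrocytes and their precursors. They were found by exact gene symbol in the deposited table of cerebellar read counts, which holds 18394 genes. All 31 were in the table and all 31 were among the 15467 genes with enough counts to be tested. The cerebella came from 12 mice. In 6 of them Crfr1, the type 1 receptor for corticotropin-releasing factor, was knocked out conditionally with the Δα6-Cre driver (cKO), and the other 6 were wild type (WT). This driver takes its name from GABA-A receptor subunit α6, whose gene is active in cerebellar granule cells and not known for a role in oligodendrocytes. The labels name no group with Cre alone, and no strain, age, sex or litter, so the effects of receptor loss, Cre and linked DNA cannot be told apart.

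Oligodendrocytes wrap axons in myelin, a stack of membrane rich in galactolipids, and in the cerebellum most of them lie in the white matter and the granular layer. They arise from precursors that carry the PDGF receptor α and the proteoglycan NG2, pass through a short committed stage, and then switch on the myelin genes under the transcription factors Olig2, Sox10 and Myrf. Because each library is RNA of a whole cerebellum, fewer oligodendrocytes and less myelin RNA per oligodendrocyte cannot be told apart in these values.

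Library totals were 32.3 to 58.7 M counts in cKO and 23.8 to 62.1 M in WT (M, counts in units of 1e6; two-sided exact permutation test of the totals, p = 0.0974). The receptor gene, listed as Crhr1, averaged 98.8 ± 6.00 CPM in cKO and 97.6 ± 4.31 CPM in WT (SD, n = 6 each), where CPM is counts per 1e6 after scaling libraries to each other. Whole-gene counts can include exons that a conditional deletion leaves in place and cells without Cre. Whether this accounts for the similar values was not tested, and these counts do not show the deletion. Gabra6, the gene for the α6 subunit, averaged 623 ± 30.0 CPM in cKO and 813 ± 56.1 CPM in WT (SD, n = 6 each; edgeR adjusted p = 1.45e-05). Markers of granule cells and Purkinje cells were abundant, with 5462 to 5890 and 3551 to 4117 summed CPM in cKO, and 5692 to 5891 and 3927 to 4214 in WT. Schwann cell markers, which would mark peripheral nerve, summed to 9.53 to 12.1 CPM in cKO and 10.9 to 12.9 CPM in WT over the 6 of 8 found in the table, with 0 of 3 tested called. Of the markers of other cells, 2 of 10 for microglia were higher in cKO (Cx3cr1 and Csf1r), where 1.27% of all tested genes were higher and 1.38% lower. For granule cells 1 of 8 was higher and 3 were lower. These were Gabra6, which was lower, and Pax6, Etv1 and Zic1. For Purkinje cells, astrocytes and endothelium 0 of 8 were called in each list. Log2 fold changes were positive in 10 of 10 microglia markers and 8 of 8 endothelium markers. They were positive in 4 of 8 for granule cells, Purkinje cells and astrocytes each, and in 7708 of all 15467 tested genes.

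For 4 of the genes, the promoter window is shown before the values: 250 bases before the annotated start of transcription and 50 after it, from RefSeq on GRCm38.p6, the assembly of mm10. Nkx6-2 and Opalin had the most negative differences between the genotypes, Cspg4 had the most positive difference, and Cnp had the smallest standard error. RefSeq windows matched 22 of the 31 genes. Capitals mark letters searched on both strands: CTGGCAC or CTGGTAC, bound by the myelin gene regulator MYRF, ACAAAG or ACAATG, bound by SOX factors, and CAGCTG, an E-box of the kind bound by OLIG2. Each sequence reads 5′ to 3′ on the strand of its gene.
Nkx6-2 (chr7:139582748-139583047, minus strand): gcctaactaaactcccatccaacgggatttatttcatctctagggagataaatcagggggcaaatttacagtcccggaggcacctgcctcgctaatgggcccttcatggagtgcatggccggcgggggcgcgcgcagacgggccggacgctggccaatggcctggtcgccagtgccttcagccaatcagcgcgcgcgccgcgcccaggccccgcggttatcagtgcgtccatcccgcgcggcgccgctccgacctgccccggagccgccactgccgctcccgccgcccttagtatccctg
Opalin (chr19:41077064-41077363, minus strand): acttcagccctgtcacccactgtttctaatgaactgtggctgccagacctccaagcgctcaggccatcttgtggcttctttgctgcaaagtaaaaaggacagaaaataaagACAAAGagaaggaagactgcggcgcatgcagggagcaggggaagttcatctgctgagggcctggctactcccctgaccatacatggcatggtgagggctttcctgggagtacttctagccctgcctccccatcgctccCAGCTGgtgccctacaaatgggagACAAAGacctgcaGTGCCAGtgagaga
Cspg4 (chr9:56864854-56865153, plus strand): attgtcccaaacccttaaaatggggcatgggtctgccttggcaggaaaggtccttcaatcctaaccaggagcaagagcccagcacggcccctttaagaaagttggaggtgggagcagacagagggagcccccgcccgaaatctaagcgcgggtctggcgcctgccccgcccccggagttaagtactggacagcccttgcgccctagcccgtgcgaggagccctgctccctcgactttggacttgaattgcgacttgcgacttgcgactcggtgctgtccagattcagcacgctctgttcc
Cnp (chr11:100574689-100574988, plus strand): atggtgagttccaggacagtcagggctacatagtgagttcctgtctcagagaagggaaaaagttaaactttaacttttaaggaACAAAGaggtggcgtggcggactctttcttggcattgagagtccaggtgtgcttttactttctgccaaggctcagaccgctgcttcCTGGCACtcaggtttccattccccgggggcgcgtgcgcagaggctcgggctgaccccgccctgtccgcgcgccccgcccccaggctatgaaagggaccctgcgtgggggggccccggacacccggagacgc
The Opalin window held 1 MYRF match, 2 SOX matches and 1 E-box, and the Cnp window held 1 MYRF match and 1 SOX match. The Nkx6-2 and Cspg4 windows held 0 matches to the 3 motifs. Over all 32851 windows of this length, 7.10% held a MYRF match, 28.6% a SOX match and 16.3% the E-box. Of the 22 matched genes, 4 had a window with a MYRF match (Cnp, Mag, Mog and Opalin), 10 had a SOX match and 2 had the E-box (Aspa and Opalin). Counted by window, as over all windows, 5 of their 28 windows held a MYRF match, 12 a SOX match and 2 the E-box. A match is a description of the letters and not a measured binding site.

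The myelin genes differed widely in level and little between the genotypes. Divided by the length of all annotated exons, Mbp, which encodes the myelin basic protein that holds the membrane layers together, had the highest level, 217 ± 7.85 CPM per kb in cKO and 221 ± 8.27 CPM per kb in WT (SD, n = 6 each). Trf, which encodes the iron carrier transferrin, followed with 144 ± 6.84 CPM per kb in cKO and 141 ± 6.84 CPM per kb in WT. Cnp, the gene for the enzyme CNPase of non-compact myelin, had 82.1 ± 2.20 CPM per kb in cKO and 84.4 ± 1.97 CPM per kb in WT. At the low end stood Bmp4, Cspg4 and Enpp6, with means of 1.04, 1.11 and 0.92 CPM per kb in cKO and 1.07, 0.999 and 0.87 CPM per kb in WT. In the order of WT levels per kb, the ranges of 18 of 30 pairs of neighbouring genes overlapped. Much of the middle of that order is therefore not resolved. Mbp, Trf, Cnp and Cntn2, in that order, had ranges that did not overlap. The ranges show the spread between libraries and not any error from dividing by the length of all annotated exons. Much of the Trf exon sequence is also annotated to Gm20425 on the same strand, and the counting rule is not stated in the sources used here, so the Trf level may miss or include reads of that gene. The plot of levels per kb of exon shows all 31 genes.

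**Figure D1:**
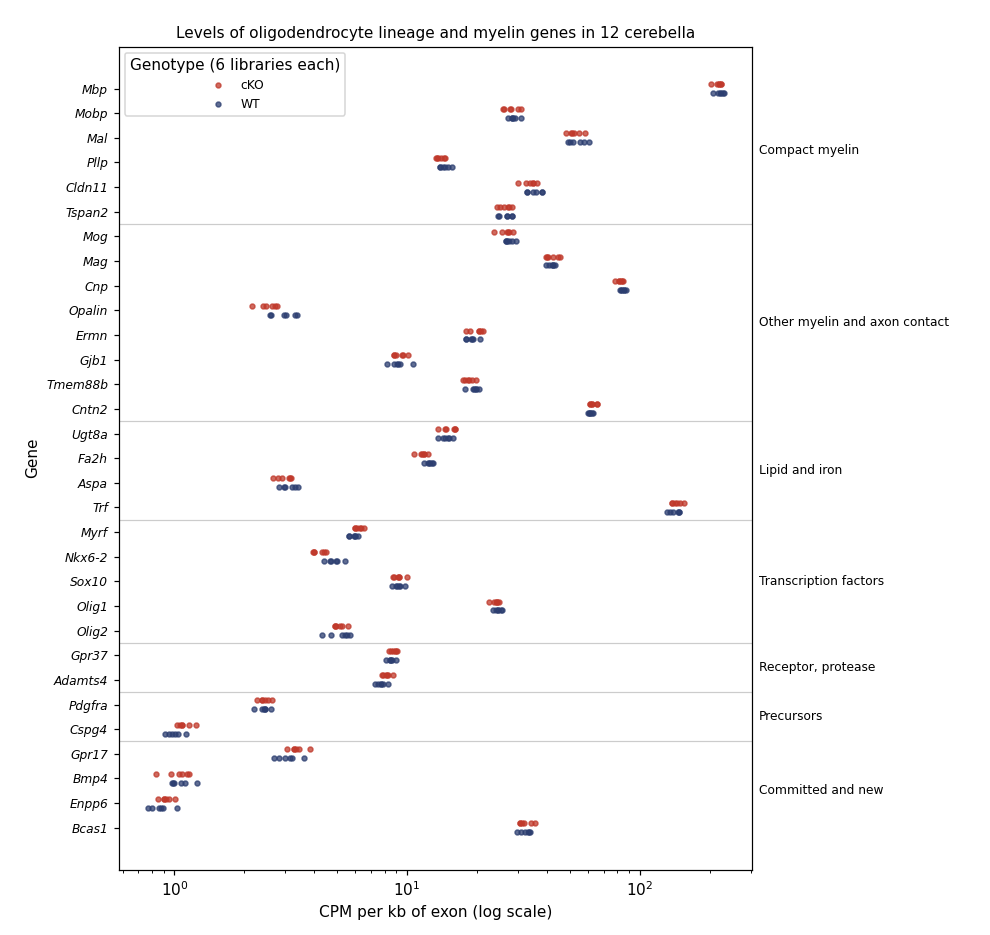
Levels of the 31 genes in CPM per kb of exon (log scale), grouped by role, with a point for each of 6 cKO libraries (red, upper) and 6 WT libraries (blue, lower). Mbp averaged 217 CPM per kb in cKO and 221 in WT, and Enpp6 0.92 in cKO and 0.87 in WT. The points of the genotypes lie close to each other in every row.

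None of the 31 genes passed the test between genotypes. In the quasi-likelihood test of edgeR over all 15467 genes, with Benjamini-Hochberg adjustment at 0.05, 0 of 31 were called, where 2.64% of all tested genes were called, 1.27% higher and 1.38% lower in cKO. At an unadjusted p under 0.05 there were 6, where 14.2% of all tested genes passed. With DESeq2 the counts were 0 at an adjusted p under 0.05 and 6 unadjusted, and the authors' deposited table also gave 0 and 6. The cKO and WT libraries overlapped in all 31 genes, where 2.09% of all tested genes had groups that did not overlap. The log2 fold change, cKO over WT, was positive in 16 of the 31 and negative in 15. Its median was 0.00036, beside −0.00027 over all tested genes. The summed level of the 31 genes was 4467 to 4904 CPM in cKO, with a median of 4717, and 4567 to 4836 CPM in WT, with a median of 4730.

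The intervals bound how large a difference these libraries leave room for. In 28 of the 31 genes the 95% interval of the difference lay within a fold of 1.2 in either direction, and in 14 within 1.1. The exceptions at 1.2 were Opalin, Nkx6-2 and Cspg4, and all 31 lay within 1.5. Over all 15467 tested genes, 11489 lay within 1.2, 7457 within 1.1 and 14190 within 1.5. The median standard error of the 31 was 0.04 on the log2 scale, as it was over all tested genes (0.04). Counts per library ran from 57 for Bmp4 to 110854 for Mbp. Library-to-library variation, as the SD over the mean of CPM in a group, was between 1.77% (Cntn2 in WT) and 11.6% (Bmp4 in cKO).

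**Figure D2:**
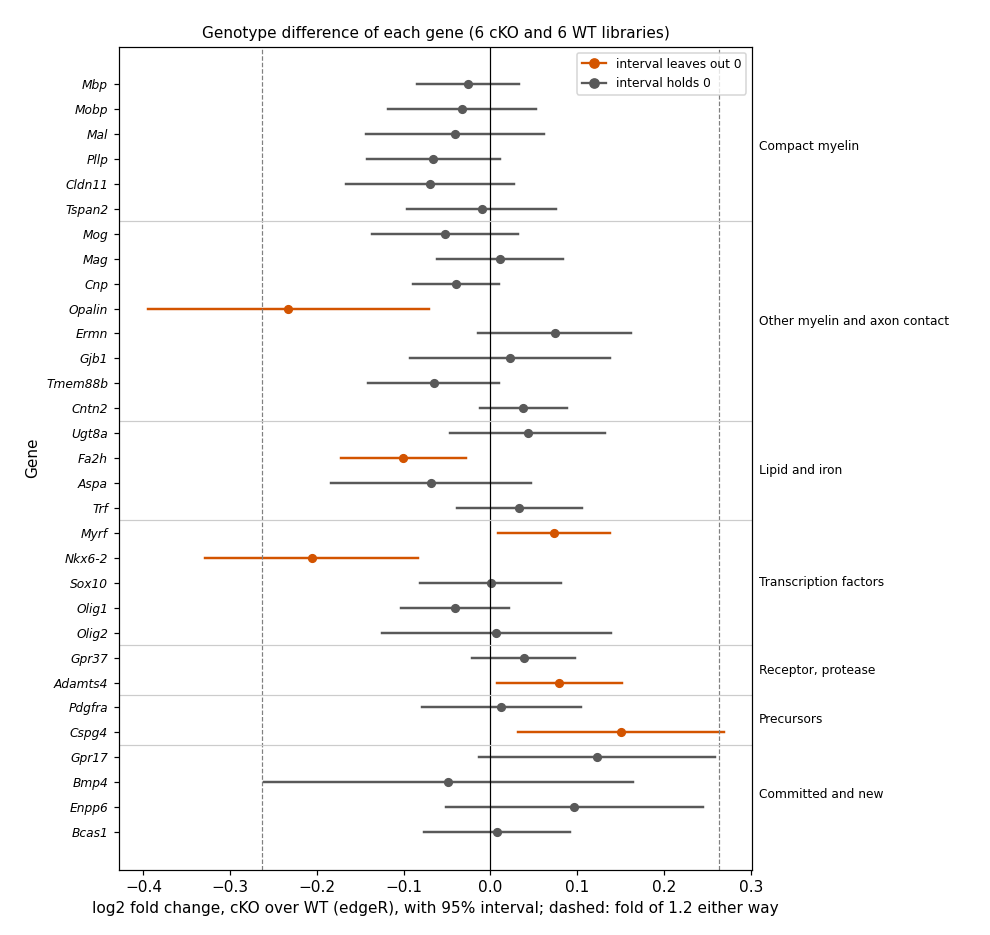
The log2 fold change of each of the 31 genes, cKO over WT, with its 95% interval from edgeR (6 libraries each). Orange marks the 6 genes whose interval leaves out 0 before adjustment, which are Opalin, Fa2h, Myrf, Nkx6-2, Adamts4 and Cspg4. Dashed lines mark a fold of 1.2 either way, and 28 of the 31 intervals lie between them.

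The transcripts of compact myelin proteins showed small negative differences. None passed the test, and their size shifted when single libraries were left out. Mbp (chromosome 18, 82475146 to 82585637, mm10) measured 1716, 1857 and 1899 CPM in cKO (lowest, median, highest) and 1754, 1890 and 1942 CPM in WT. The ranges overlapped, 5 of the 6 cKO libraries lay below the WT median, and cKO replicate 4 lay below every WT library. For Mbp the log2 fold change was −0.03 (SE 0.03, edgeR adjusted p = 0.752), and the 95% interval of the difference ran from −5.67% to 2.33%. The log2 fold changes of Mobp, Mal, Pllp, Cldn11 and Tspan2 lay between −0.07 (Cldn11) and −0.0098 (Tspan2), with edgeR adjusted p from 0.438 to 0.952 over the 6 genes. Mobp encodes a basic protein of the major dense line, Mal and Pllp encode membrane proteins of myelin, Cldn11 encodes the tight junction protein of the myelin sheath, and Tspan2 a tetraspanin of oligodendrocytes. The 6 had a median log2 fold change of −0.04, and their summed level was 2226 to 2499 CPM in cKO and 2299 to 2529 CPM in WT. Without cKO replicate 4 the log2 fold changes were −0.0052 for Mbp, −0.0092 for Mobp, −0.02 for Mal, −0.05 for Pllp, −0.04 for Cldn11 and 0.01 for Tspan2. Tspan2 also changed sign with surrogate variables (0.01) and without some other single libraries. Without WT replicate 6 the log2 fold changes were −0.04 for Mbp, −0.07 for Mal, −0.08 for Pllp and −0.09 for Cldn11. Those of Mobp and Tspan2 were both −0.03 in that fit.

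Of the 8 other proteins of the myelin sheath and its contact with the axon, 4 had positive and 4 negative log2 fold changes, and 0 were called. Opalin, a transmembrane protein found in myelinating oligodendrocytes of the central nervous system (chromosome 19, 41061710 to 41077113, minus strand), had the largest difference of all 31 genes. It measured 6.38, 7.52 and 8.11 CPM in cKO (lowest, median, highest) and 7.59, 8.84 and 9.88 CPM in WT. All 6 cKO libraries lay below the WT median, and the 2 lowest WT libraries, replicates 5 and 6, lay within the cKO range. On the log2 scale cKO over WT came to −0.23 (SE 0.08, 95% interval −24.0% to −4.83%), with an edgeR adjusted p of 0.142, and over 22 alternative fits the adjusted p was at least 0.0685.

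Mag, an adhesion protein of the innermost myelin layer, measured 161, 168 and 186 CPM in cKO and 161, 172 and 176 CPM in WT (lowest, median, highest). The genotypes differed by 0.01 (log2, SE 0.03, 95% interval −4.22% to 5.99%), and the sign turned in several alternatives. Mog, on the outer surface of myelin, had a log2 fold change of −0.05, Cnp −0.04, Ermn, which encodes a cytoskeletal protein of the sheath, 0.07, and the membrane protein gene Tmem88b −0.07. Gjb1, the connexin 32 of oligodendrocytes, had a log2 fold change of 0.02. Cntn2, the adhesion molecule TAG-1 that ties axon to glia beside the paranode and is also made by neurons, had 0.04. The edgeR adjusted p of these 7 genes lay between 0.428 and 0.930. With the brainstem score as covariate Ermn was at 9.7e-05, Mog at −0.12 and Tmem88b at −0.11, and 0 of the 3 passed.

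Among the genes of lipid and iron metabolism, Fa2h was nearest to the threshold. Fa2h makes the 2-hydroxy fatty acids of myelin galactolipids (chromosome 8, 111345135 to 111393824, minus strand). It measured 32.2, 35.2 and 37.04 CPM in cKO (lowest, median, highest) and 35.6, 37.6 and 38.9 CPM in WT. All 6 cKO libraries lay below the WT median, and 5 lay below the lowest WT library, so the overlap came from cKO replicate 6. Fa2h had a log2 fold change of −0.10 (SE 0.03, 95% interval −11.3% to −1.97%, edgeR adjusted p = 0.153). It passed in 1 of 22 alternative fits, the fit with a brainstem score as covariate (adjusted p = 0.0491). That score rests on 15 genes that summed to at most 1.82 CPM in cKO and 1.58 CPM in WT.

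Ugt8a, whose enzyme adds the galactose of galactocerebroside and thus acts in the same pathway as Fa2h, had a log2 fold change of 0.04 (SE 0.04, edgeR adjusted p = 0.717). Aspa, the enzyme that frees acetate from N-acetylaspartate in oligodendrocytes, had −0.07 (SE 0.05, edgeR adjusted p = 0.633), with −0.0068 under surrogate variables and −0.14 with the brainstem score. Trf measured 455, 477 and 515 CPM in cKO and 437, 473 and 491 CPM in WT (lowest, median, highest), with a log2 fold change of 0.03 (SE 0.03, edgeR adjusted p = 0.729). Trf is also made by the choroid plexus, whose 8 markers summed to 158 to 1053 CPM in cKO and 220 to 661 CPM in WT, with 0 of the 8 called. With a choroid plexus score as covariate, a fit added after the data were seen, the log2 fold change of Trf was 0.02.

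Of the 5 transcription factors, 0 were called, and Nkx6-2 came nearest of all 31 genes. Nkx6-2 is a homeodomain factor of maturing oligodendrocytes (chromosome 7, 139579376 to 139582797, minus strand). It measured 7.49, 7.91 and 8.56 CPM in cKO (lowest, median, highest) and 8.41, 9.21 and 10.3 CPM in WT. All 6 cKO libraries lay below the WT median and 5 below the lowest WT library, which was replicate 6. Nkx6-2 differed by −0.21 (log2, SE 0.06, 95% interval −20.4% to −5.59%), with an edgeR adjusted p of 0.0726. The adjusted p was 0.0575 with DESeq2 and 0.0606 in the authors' deposited table. Without WT replicate 6 it was 0.0449, the only one of 22 alternative fits in which Nkx6-2 passed. Its exons share 246 bases with Inpp5a on the opposite strand, and the strand setting of the counting is not given in the sources used here.

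Myrf, the factor that turns on and maintains myelin genes, had a difference of the opposite sign. It measured 51.01, 52.9 and 55.7 CPM in cKO (lowest, median, highest) and 48.1, 50.9 and 52.6 CPM in WT, and all 6 cKO libraries lay above the WT median. Myrf had a log2 fold change of 0.07 (SE 0.03, 95% interval 0.642% to 10.1%), with an edgeR adjusted p of 0.272. Sox10, which acts along the whole lineage, had means of 28.05 ± 1.42 CPM in cKO and 28.03 ± 1.24 CPM in WT (SD, n = 6 each), with a 95% interval from −5.44% to 5.81%. Olig1 and Olig2, the basic helix-loop-helix factors that specify the lineage, had log2 fold changes of −0.04 (SE 0.03) and 0.0067 (SE 0.06), with edgeR adjusted p of 0.590 and 0.981. The 4 factors other than Nkx6-2 had intervals within a fold of 1.2.

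**Figure D3:**
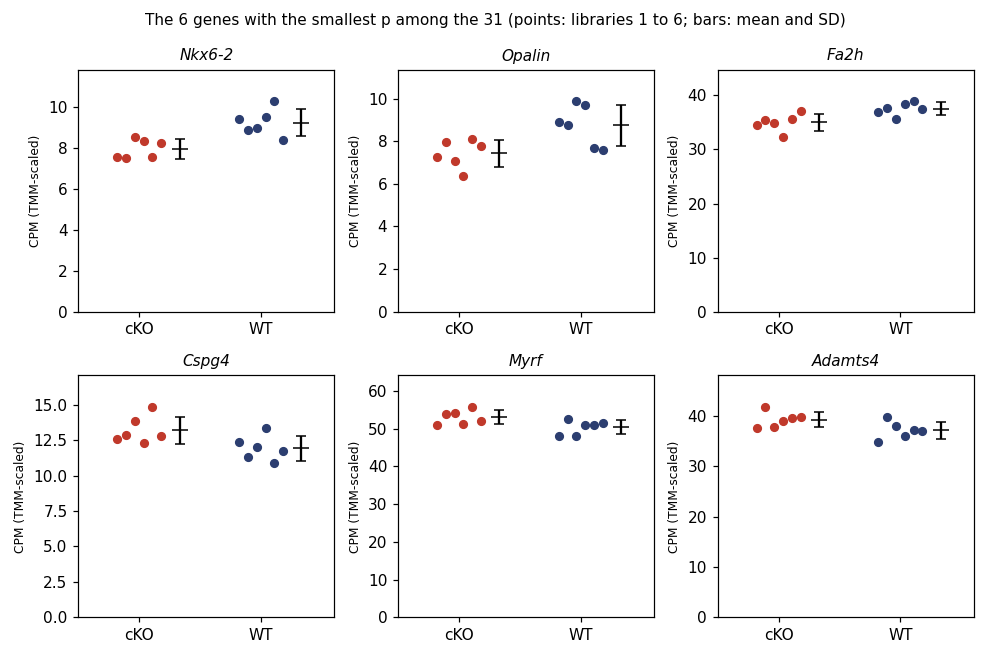
CPM of the 6 genes with the smallest p among the 31, with a point for each library (cKO left and red, WT right and blue) and the mean and SD of each genotype beside the points. None passed the adjusted test. All 6 cKO libraries lay below the WT median for Nkx6-2, Opalin and Fa2h, and above it for Cspg4, Myrf and Adamts4, and the genotypes overlap in every panel.

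The precursor markers did not pass either. Cspg4, which encodes NG2 (chromosome 9, 56865033 to 56899870, plus strand), measured 12.3, 12.8 and 14.8 CPM in cKO (lowest, median, highest) and 10.9, 11.9 and 13.3 CPM in WT. All 6 cKO libraries lay above the WT median, and 2 lay above the highest WT library. Cspg4 had a log2 fold change of 0.15 (SE 0.06, 95% interval 2.19% to 20.5%, edgeR adjusted p = 0.213), and 0.09 with counts thinned to the smallest total. Pdgfra, the receptor through which PDGF drives precursor division, measured 22.6, 24.2 and 26.4 CPM in cKO and 22.0, 24.4 and 26.1 CPM in WT. Its log2 fold change was 0.01 (SE 0.04, edgeR adjusted p = 0.938), and it changed sign in several alternatives. Both genes are also made outside the lineage, Cspg4 by pericytes and Pdgfra by fibroblasts. The 8 markers of pericytes and mural cells summed to 158 to 182 CPM in cKO and 164 to 179 CPM in WT, and the 8 markers of fibroblasts and meninges to 120 to 144 CPM in cKO and 117 to 141 CPM in WT. In each list 0 of 8 were called.

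Of the 4 genes of committed and newly formed oligodendrocytes, 0 were called, and 3 had positive log2 fold changes. Gpr17, a receptor that marks the committed stage, measured 15.8, 17.1 and 19.9 CPM in cKO (lowest, median, highest) and 13.9, 15.9 and 18.7 CPM in WT, with 5 of 6 cKO libraries above the WT median. Its log2 fold change was 0.12 (SE 0.06, edgeR adjusted p = 0.407), and 0.08 both without cKO replicate 3 and with surrogate variables. Enpp6, a choline phosphodiesterase of newly formed oligodendrocytes, had 0.10 (SE 0.07, edgeR adjusted p = 0.587), and Bcas1, a protein of early and myelinating oligodendrocytes, 0.0076 (SE 0.04, edgeR adjusted p = 0.961). Bmp4, a growth factor gene active in committed precursors, had a log2 fold change of −0.05 with the widest error of the 31 (SE 0.10, edgeR adjusted p = 0.889). The 4 genes summed to 140 to 161 CPM in cKO and 136 to 152 CPM in WT. Gpr17 shares 188 exon bases with Lims2 on the opposite strand.

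Adamts4, a metalloprotease made by mature oligodendrocytes, measured 37.6, 39.3 and 41.8 CPM in cKO (lowest, median, highest) and 34.9, 37.2 and 39.8 CPM in WT. All 6 cKO libraries lay above the WT median, with a log2 fold change of 0.08 (SE 0.03, 95% interval 0.490% to 11.1%, edgeR adjusted p = 0.295). Gpr37, an orphan receptor of oligodendrocytes, had a log2 fold change of 0.04 (SE 0.03, edgeR adjusted p = 0.591).

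The genes also varied between libraries of the same genotype. cKO replicate 4 was the lowest of the 12 libraries for 12 of the 31 genes, 10 of them among the 18 genes of myelin proteins, axon contact, lipid and iron. Its median log2 deviation from the WT mean was −0.13 over those 18 genes. cKO replicate 2 was the highest of the 12 for 7 of the 31, with a median deviation of 0.05 over the same 18. Among the WT libraries, replicate 4 was the highest of the 12 for 6 genes and lay at 0.04 over the 18, whereas replicate 6 lay at −0.07. The 6 genes of precursors and new oligodendrocytes had another order, with the highest median deviation in cKO replicate 3 (0.15) and the lowest in WT replicate 2 (−0.13). Without cKO replicate 4, the median log2 fold change of the 31 was 0.01 and 0 were called. Without WT replicate 6 that median was −0.03 and 1 was called (Nkx6-2).

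**Figure D4:**
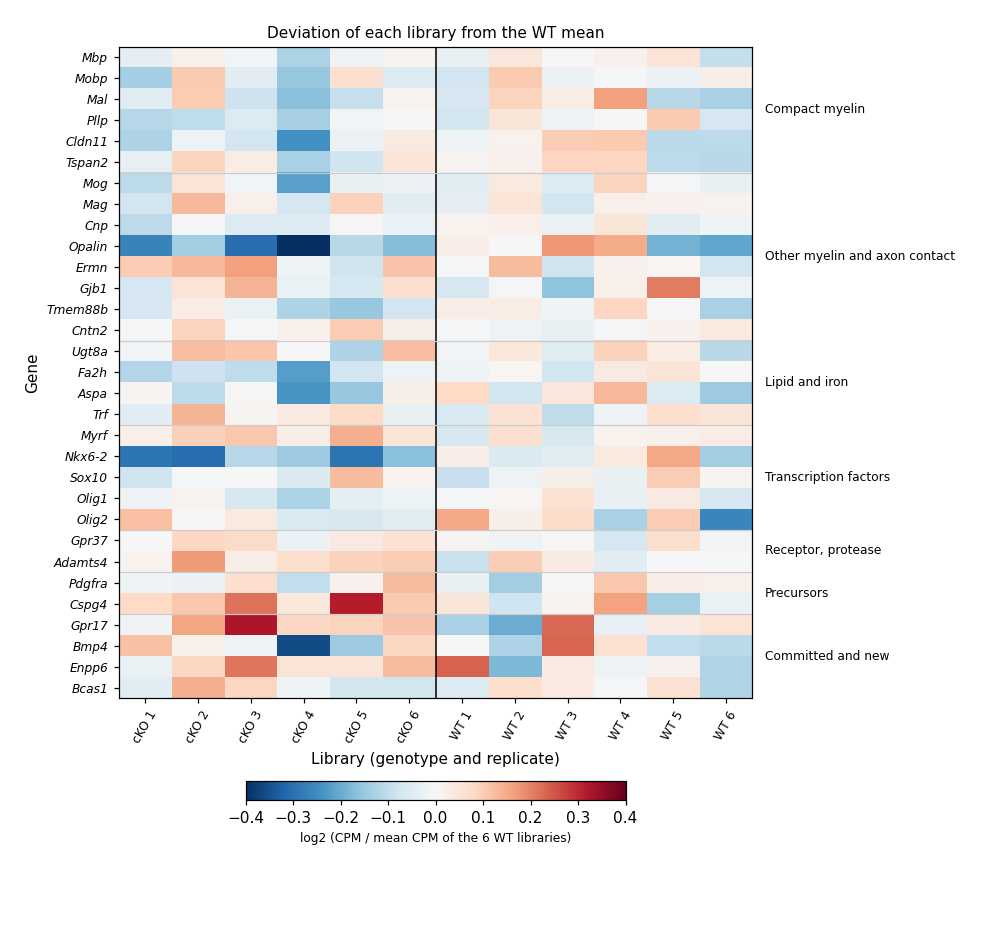
The log2 ratio of CPM in each library to the mean of the 6 WT libraries, for 31 genes (rows, by role) and 12 libraries (columns, cKO left and WT right of the black line). Most cells lie near 0. The column of cKO replicate 4 is low across the myelin genes, with a median of −0.13 over 18 genes, and the Opalin and Nkx6-2 rows are lower in cKO.

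A wider set of genes outside the 31, of the lineage and of axon and glia contact sites, held 3 calls, all lower in cKO. Of 98 genes in 5 lists, 95 were tested and 3 fell, where 1.38% of all tested genes fell. Of the 3, 2 were in the list of precursors and new oligodendrocytes and 1 in the list of contact sites. Of the 17 tested genes in the list of precursors and new oligodendrocytes, 15 were not called. In that list 10 log2 fold changes were positive and 7 negative, with a median of 0.014. The lists were chosen with earlier results of these data known, and an excess over that share was not tested. Lhfpl3, a tetraspan membrane protein used as a marker of precursors, measured 34.8, 37.1 and 40.33 CPM in cKO (lowest, median, highest) and 40.26, 42.7 and 45.3 CPM in WT, so the genotypes overlapped by 1 library of each. It fell by 13.3% (log2 fold change −0.21, SE 0.04, edgeR adjusted p = 0.00487), although Pdgfra and Cspg4 did not pass, and whether Lhfpl3 differed from them was not tested. Sema5a, a semaphorin made by the oligodendrocyte lineage and by neurons, measured 51.2, 54.5 and 57.2 CPM in cKO and 57.6, 63.4 and 66.1 CPM in WT. The genotypes did not overlap, and it fell by 12.7% (log2 fold change −0.20, SE 0.04, edgeR adjusted p = 0.00541). Without the 4 libraries highest in a forebrain and midbrain score, the mean log2 CPM of 14 markers (cKO replicates 1, 2 and 3 and WT replicate 5), Lhfpl3 and Sema5a had log2 fold changes of −0.18 and −0.21 with an edgeR adjusted p of 0.139 and 0.0692 over the remaining 8 libraries. With counts thinned to the smallest total, Lhfpl3 had a log2 fold change of −0.17 and an edgeR adjusted p of 0.0653, and neither passed against a fold minimum of 1.1. Lhfpl3 shares 567 exon bases with A930003O13Rik on the opposite strand.

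The third call was in the list of axon and glia contact sites, where 1 of 11 tested genes fell. Kcna2, a potassium channel subunit that Cntn2 and its partner Cntnap2 hold beside the paranode and that also sits in axon terminals, measured 511, 547 and 586 CPM in cKO (lowest, median, highest) and 637, 670 and 687 CPM in WT. It fell by 17.6% (log2 fold change −0.28, SE 0.03, edgeR adjusted p = 5.10e-05) and passed in all 22 alternative fits. The remaining 10, among them Cntnap2, with a log2 fold change of 0.03, did not pass. Cntn2 itself had 0.04.

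In the other lists no gene passed. Of 40 further genes of mature oligodendrocytes, 0 were called, 16 had positive and 24 negative log2 fold changes, and the median was −0.0067. The genes of that list with the smallest p were Padi2, Ndrg1 and Efnb3. Padi2, which makes citrullinated residues in myelin proteins, averaged 29.2 ± 3.47 CPM in cKO and 24.4 ± 2.50 CPM in WT (SD, n = 6 each; log2 fold change 0.25, edgeR adjusted p = 0.0778). Ndrg1, whose loss causes a neuropathy of peripheral myelin, averaged 102 ± 3.03 CPM in cKO and 97.1 ± 2.00 CPM in WT (SD, n = 6 each; edgeR adjusted p = 0.132), with no overlap of the genotypes. Efnb3, an ephrin ligand of the myelin membrane, had a log2 fold change of −0.08 (edgeR adjusted p = 0.325).

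Of 12 enzymes of myelin lipid synthesis and breakdown 0 were called, and all 12 had intervals within a fold of 1.2. The smallest p there belonged to Psap, which encodes the saposins that help to break down sphingolipids, to Sptlc1, a subunit of the enzyme that starts sphingolipid synthesis, and to Elovl7, which lengthens fatty acids. Their log2 fold changes were 0.05, 0.04 and −0.08. Of 15 tested regulators of the lineage 0 were called. Id2, an inhibitor of helix-loop-helix factors, averaged 133 ± 9.12 CPM in cKO and 159 ± 21.6 CPM in WT (SD, n = 6 each; log2 fold change −0.26, edgeR adjusted p = 0.0542). Hes5, a Notch target that holds precursors undifferentiated, averaged 1.26 ± 0.20 CPM in cKO and 0.97 ± 0.11 CPM in WT (SD, n = 6 each; edgeR adjusted p = 0.207). Tcf7l2, a factor of newly formed oligodendrocytes that neurons of the thalamus and midbrain also make, averaged 15.9 ± 5.06 CPM in cKO and 10.9 ± 4.12 CPM in WT (SD, n = 6 each; edgeR adjusted p = 0.259). Its 4 highest libraries, at 18.3, 18.6 and 23.0 CPM in cKO replicates 1, 2 and 3 and 17.98 CPM in WT replicate 5, were also the 4 highest in the forebrain and midbrain score, whose part in this was not tested. That score was 1.44, 1.13 and 1.14 in those cKO libraries and 1.14 in that WT library, and at most 1.12 in the other cKO libraries and 1.06 in the other WT libraries.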

How the data were processed

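Per the labels' protocols, RNA of freshly dissected cerebella was made into stranded mRNA libraries, and all samples shared the same sequencing lanes. The deposited table holds raw counts for each gene symbol. The submitters' processing notes list STAR, DESeq2 and mm10. No version, counting tool, strand setting or annotation is stated in the sources used here. The authors also deposited a DESeq2 table with a mean normalised signal, a log2 fold change, its standard error and test score, and p-values, per the file headers. Its sign was read from the 400 genes called both there and here, of which 400 had the same sign.

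Groups came from the genotype labels. Replicate numbers follow the order of deposit and only name libraries. Within a group, pairs of libraries differed beyond counting noise (chi-square per degree of freedom at least 2.68 over genes with 100 or more summed counts). Where nothing says that cerebella came from separate litters, p-values measure the spread between these animals.

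The count model was edgeR 4.0.16 under R 4.3.3, with filterByExpr, TMM scaling, the quasi-likelihood test and Benjamini-Hochberg adjustment over all tested genes at 0.05. Intervals come from the test statistic, are unadjusted and cover 95%. Totals, Crhr1 and Gabra6 had exact permutation tests over 924 assignments, whose smallest p is 0.00216. Gabra6 reached it, and Crhr1 had an exact permutation p of 0.727. Alternatives used DESeq2 1.42.0, sva 3.50.0 (3 surrogate variables), RLE scaling, no filter, thinned counts, marker scores, glmTreat with a fold minimum of 1.1, and each library left out. The test was tested on simulated data. Positions and exon lengths came from GENCODE M21 (mm10), and promoters from RefSeq.

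The members and lists were chosen with earlier results of these data known. All 31 members are named. Of each other lineage or contact site list, the genes that passed are named, or else the 3 with the smallest p, with Cntnap2 added for context. Zfp24 and Epb41l3 were not found under these symbols and Casr had too few counts to be tested.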

Additional observations from a re-analysis of the deposited data

How the results depend on the processing

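The count of 0 called genes among the 31 was also found in 20 of 22 alternative fits. It was 1 without WT replicate 6 (Nkx6-2), so leaving out single libraries gave 0 to 1, and 1 with the brainstem score as covariate (Fa2h, log2 fold change −0.15). The fold minimum of 1.1 sets a stricter test on the same data, so the 0 in that fit followed from the main one. Thinned counts, and leaving out the 4 libraries highest in the forebrain and midbrain score, left less data than the main fit had. Over all genes the 409 calls became 272 to 459 without single libraries, lowest without WT replicate 3, 157 without the 4 libraries highest in the forebrain and midbrain score, and 75 with a fold minimum of 1.1. The 3 calls in the lineage and contact site lists became 3 to 5 without single libraries (5 without WT replicate 6). They became 1 without those 4 libraries and 1 with the fold minimum.

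Genes near 0 changed sign without passing in any fit, and Enpp6 was at 0.15 with surrogate variables. With surrogate variables Tspan2 was at 0.013, Mag at −0.0029 and Sox10 at −0.014. With the brainstem score Mag was at −0.015, Gjb1 at −0.023, Ugt8a at −0.025, Pdgfra at −0.029 and Bcas1 at −0.0023. With the forebrain and midbrain score Sox10 was at −0.00081 and Olig2 at −0.040. Without the 4 libraries highest in that score Mag was at −0.0027, Olig2 at −0.025 and Bcas1 at −0.041. With thinned counts Sox10 was at −0.0088, Olig2 at −0.012, Pdgfra at −0.0029 and Bcas1 at −0.0071. With the choroid plexus score, chosen after seeing the data, Tspan2 was at 0.0024 and Bcas1 at −0.0024. Without single libraries the ranges were −0.022 to 0.024 for Bcas1, −0.080 to 0.011 for Bmp4, −0.0095 to 0.068 for Gjb1, −0.014 to 0.027 for Mag, −0.049 to 0.036 for Olig2, −0.012 to 0.036 for Pdgfra, −0.026 to 0.021 for Sox10 and −0.032 to 0.014 for Tspan2. The cause of these shifts was not tested. No paired analysis was possible because the labels give no replicate numbers that the groups share. Depth limits Bmp4 most, with 57 to 149 counts per library.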

Other observations

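None of the 62 groups of 6 libraries, 31 genes in each genotype, held a library that stood apart from the other 5 by the gap test used (Dixon's test at 95%), where chance alone flags about 1 in 20 groups. RNA of the choroid plexus varied most between libraries among the marker lists. Its 8 markers summed to 1053 CPM in cKO replicate 6 and to 158 CPM in cKO replicate 4, and to 661 CPM in WT replicate 4 and 220 CPM in WT replicate 2.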
